A study of Mus musculus with 8 samples.

Results

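The regions described here are the strongly accessible distal regions that 4 mouse melanoma cell lines had in common. They were selected on measured values: a region had to lie on an autosome, more than 10 kb from either end of every protein-coding gene of GRCm38, and had to reach a CPM of at least 10 (the count of a region divided by the total of its library, times 1000000) in each of the 8 libraries. Of 148664 regions in the count table, 96635 were distal and autosomal, and 1802 of these met the minimum. Levels of the members are therefore given as a description, and high accessibility in every line is not a finding.

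The assay was ATAC-seq, in which the transposase Tn5 cuts and tags open chromatin, so that the count of a region is read as its accessibility. A count also depends on how many copies of the region the cells carry. Copy number was not measured here, and its part in differences between lines was not tested. Lines 112 and 113 carry the label STAT3 knockout (Stat3Δ in the protocol), and lines 119 and 73 are wild type (Stat3fl, a floxed allele that was left in place). All 4 lines were grown out of lymph node cells of mice that had developed cutaneous melanoma at about 25 to 30 weeks of age. The labels call each line a clone, while the protocol calls the lines pools, and each line gave 2 libraries from 50000 cells each that are labelled biological replicates. Whether the duplicates came from separate cultures is not stated, so p-values between lines measure only the spread between such duplicates. The sample titles also give each line a number after a letter p, namely p18 for 112, p44 for 113, p14 for 119 and p68 for 73. What it stands for is not given in the sources used here. The promoter or cell type of the Cre that deleted Stat3, and other alleles of these mice, are not given in the sources used here.

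Open chromatin away from gene ends is known mainly for enhancers, which are sequences bound by transcription factors that act on promoters over a distance, and for sites bound by CTCF, which folds chromatin into loops. Enhancers are usually cell-type specific, whereas promoters of broadly used genes are open in most cells. Many genes also have more than 1 promoter, and long noncoding RNAs (lncRNAs) and transfer RNA (tRNA) genes have promoters that a filter on protein-coding genes does not see. tRNA genes are transcribed by RNA polymerase III from promoter elements within the gene.

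The library totals ran from 2697546 counts (line 112, replicate 2) to 7464336 (line 119, replicate 1). Line 112 replicate 2 stood apart: members held 4.08% of its counts against 4.499% to 5.21% in the other 7 libraries, and it was the lowest library for 528 of the 1802 members. Of 11 regions in Stat3 itself, none had a count of 0 in any library and none was a member, and since the labels do not give the deleted exons, the table does not check the knockout. At the ends of melanocyte genes (within 1 kb), the most accessible region at Pmel, a pigment granule protein, had line means of 33.8 to 67.3 CPM and that at Mitf, the melanocyte master regulator, 19.5 to 35.3 CPM. At Dct, an enzyme of melanin synthesis, the line means were 26.1 CPM in line 112 and 56.3 CPM in line 113, against 3.92 CPM in line 119 and 2.13 CPM in line 73. At Sox10, which specifies the lineage, line 73 had only 3.10 CPM against 18.2 to 25.2 CPM in the others, so the defining markers were weak in part of the lines. No region was listed at the ends of Ptprc (leukocytes) or Krt5 (keratinocytes), and those at Cd3e and Krt14 had line means of at most 6.15 CPM. That maximum, at Krt14 in line 112, was above the wild-type values at Dct, Tyr, Tyrp1 and Mlana. It was also above the value at Tyrp1 in line 112 itself.

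The label "distal" did not hold for all members. Of the 1716 members off chromosome 18, 320 (18.6%) overlapped a gene-start window, that is the 300 bp from 250 bases before to 50 after an annotated RefSeq start, although they lay over 10 kb from the ends of protein-coding genes. The same was true of 1.48% of the other distal regions and of 70.5% of equally strong regions within 10 kb of a gene end. Starts of protein-coding genes inside the gene body, which belong to shorter transcripts, accounted for 189 of the 320 members, lncRNA starts for 109, and both kinds for 22. The annotated start base lay inside the region in 314 of the 320, and the region centre was within 250 bp of the start in 242 (75.6%), with a median offset of -2.75 bp. Members on a start were somewhat more accessible, with a median of 27.9 CPM against 23.8 CPM for those without one, and they made up 35 of the 100 strongest searched members and 12 of the 100 weakest. The 86 members on chromosome 18 could not be searched, because the windows used do not cover it. They also lack some genes elsewhere, Plec and Tead1 among them, so 320 is a lower bound and members without a listed start may hold one.

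**Figure D1:**
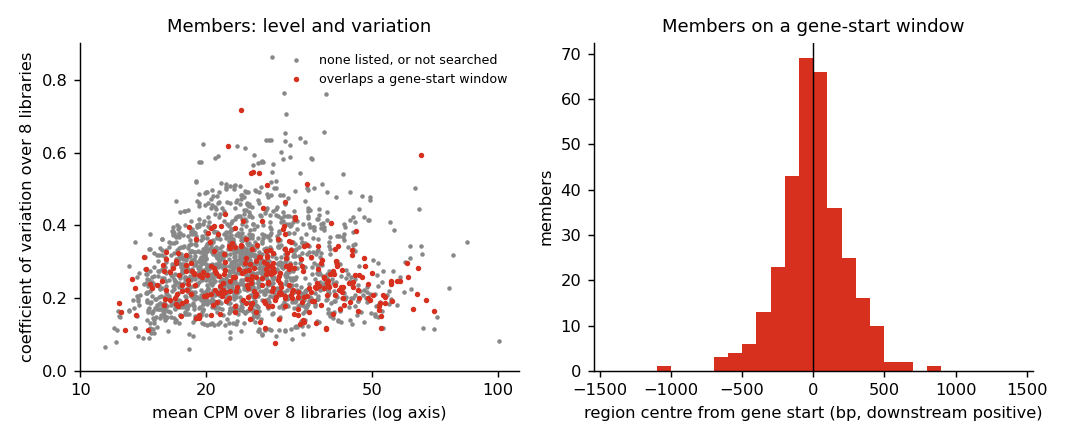
Left, mean CPM (log axis) against the coefficient of variation over the 8 libraries, 1 point per member, with members that overlap a gene-start window in red. Right, distance in bp from the annotated gene start to the region centre for the 320 members with such a window, in bins of 100 bp, most of them within 250 bp of 0.

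The sequences of 7 gene-start windows that members overlap are shown because they give the range of what the rule picked up, from CpG-rich internal promoters to an AT-rich lncRNA start. They are from RefSeq on GRCm38, the build named in the submitters' processing notes, written 5′ to 3′ on the strand of the gene, with the start base right after the first 250. Capitals mark matches, on either strand, to the motifs that are spelled out further on. The first 4 are internal starts of protein-coding genes: Slc39a10 (a zinc importer, chr1:46853569-46853868, minus strand), Ipo5 (a nuclear import receptor, chr14:120910944-120911243, plus strand), Stag1 (a cohesin subunit, chr9:100643198-100643497, plus strand) and Prickle1 (planar cell polarity, chr15:93519471-93519770, minus strand), whose window runs past the edge of its member. The other 3 are starts of lncRNAs: D730003I15Rik, 40581 bp from Atf3 (chr1:191224204-191224503, plus strand), Gm32287, beyond Cebpb (chr2:167777365-167777664, minus strand), and Gm13470, for which Zeb2 is the nearest protein-coding gene (chr2:46442856-46443155, minus strand).
Slc39a10: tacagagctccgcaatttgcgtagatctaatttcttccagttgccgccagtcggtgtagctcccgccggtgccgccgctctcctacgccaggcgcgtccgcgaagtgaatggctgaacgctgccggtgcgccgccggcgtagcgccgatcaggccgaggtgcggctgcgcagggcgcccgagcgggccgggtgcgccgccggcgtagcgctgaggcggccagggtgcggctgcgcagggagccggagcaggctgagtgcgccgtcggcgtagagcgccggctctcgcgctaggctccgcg
Ipo5: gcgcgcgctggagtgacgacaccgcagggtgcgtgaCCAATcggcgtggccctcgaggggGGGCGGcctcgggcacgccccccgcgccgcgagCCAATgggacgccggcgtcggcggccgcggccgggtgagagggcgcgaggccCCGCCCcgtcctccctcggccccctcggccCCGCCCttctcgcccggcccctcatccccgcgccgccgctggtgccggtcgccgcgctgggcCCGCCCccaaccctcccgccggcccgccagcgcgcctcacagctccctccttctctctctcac
Stag1: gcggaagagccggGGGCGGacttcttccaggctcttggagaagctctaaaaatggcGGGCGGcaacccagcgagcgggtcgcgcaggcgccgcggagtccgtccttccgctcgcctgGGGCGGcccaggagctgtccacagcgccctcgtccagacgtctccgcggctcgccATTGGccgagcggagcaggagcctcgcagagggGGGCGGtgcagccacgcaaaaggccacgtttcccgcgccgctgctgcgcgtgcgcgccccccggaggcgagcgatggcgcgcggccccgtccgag
Prickle1: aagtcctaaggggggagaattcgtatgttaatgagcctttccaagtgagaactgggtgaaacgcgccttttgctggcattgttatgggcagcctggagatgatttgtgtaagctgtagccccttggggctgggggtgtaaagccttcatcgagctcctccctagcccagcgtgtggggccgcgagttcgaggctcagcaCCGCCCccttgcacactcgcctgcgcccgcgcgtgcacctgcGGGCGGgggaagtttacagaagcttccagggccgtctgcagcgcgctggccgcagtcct
D730003I15Rik: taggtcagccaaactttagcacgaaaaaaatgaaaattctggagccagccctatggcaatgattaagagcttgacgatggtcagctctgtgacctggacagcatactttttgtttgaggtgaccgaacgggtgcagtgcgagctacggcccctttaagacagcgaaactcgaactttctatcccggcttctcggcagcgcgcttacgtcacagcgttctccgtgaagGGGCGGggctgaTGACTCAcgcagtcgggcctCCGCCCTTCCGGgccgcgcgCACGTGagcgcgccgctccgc
Gm32287: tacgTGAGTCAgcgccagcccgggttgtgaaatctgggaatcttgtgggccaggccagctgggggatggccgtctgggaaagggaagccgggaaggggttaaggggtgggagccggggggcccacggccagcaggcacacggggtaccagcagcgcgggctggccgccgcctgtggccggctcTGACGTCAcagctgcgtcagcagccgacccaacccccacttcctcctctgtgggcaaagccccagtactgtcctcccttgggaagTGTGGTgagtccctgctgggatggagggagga
Gm13470: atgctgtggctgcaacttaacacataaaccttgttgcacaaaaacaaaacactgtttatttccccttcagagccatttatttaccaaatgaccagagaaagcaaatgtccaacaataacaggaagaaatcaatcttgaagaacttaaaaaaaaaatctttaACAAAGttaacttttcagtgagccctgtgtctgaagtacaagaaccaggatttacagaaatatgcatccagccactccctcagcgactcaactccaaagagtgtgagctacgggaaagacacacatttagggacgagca

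The windows differed widely in base composition. The Ipo5 window was 80.7% G and C with 47 CpG dinucleotides, and held 4 GC boxes (GGGCGG, the site of SP1 and its relatives) and 2 CAAT boxes (CCAAT, the site of NF-Y). Stag1 likewise had 4 GC boxes and 1 CAAT box with 43 CpG. The Slc39a10 window was as CpG-rich, with 47, yet matched none of the motifs searched. Prickle1, with 20 CpG, had 2 GC boxes. D730003I15Rik carried an AP-1 site (TGANTCA, the site of FOS and JUN dimers), 2 GC boxes, an ETS site (CCGGAAG) and an E-box (CACGTG, which MITF and related factors bind), the ETS site overlapping 1 of the GC boxes. The Gm32287 window shown held an AP-1 site, a CRE (TGACGTCA, bound by CREB and ATF proteins) and a RUNX site (TGTGGT). Other windows of Gm32287 and Gm14321 in the same member had a CRE and a RUNX site or an E-box and a RUNX site, without AP-1. The Gm13470 window was the opposite in composition, at 39.0% G and C and 3 CpG, with a single SOX match (ACAAAG).

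Over all 403 windows that members overlapped, the median GC content was 61.7%, with 20 CpG and an observed-to-expected CpG ratio of 0.703. Those of strong regions near gene ends had 63.7%, 24 and 0.833 over 8836 windows, and those of other distal regions 50.3%, 5 and 0.277 over 1492 windows. Member windows thus resembled strong promoters in composition more than the gene starts in weaker distal regions. Starts of lncRNAs made up 38.2% of member windows, 884 of 8836 near gene ends and 72.6% in other distal regions. The part of this mix in the contrast was not tested. A GC box was present in 60.8% of member windows, 73.5% near gene ends, 21.8% in other distal regions and 36.0% of all 31396 autosomal windows. An ETS site was in 11.7%, 21.4%, 3.82% and 9.004% of the same sets. AP-1 ran the other way, with 8.93% of member windows, 3.73% near gene ends, 15.8% in other distal regions and 7.84% of all. SOX matches were in 15.6%, 10.98%, 26.7% and 18.6%, and CAAT boxes in 33.3%, 39.3%, 33.9% and 37.3%.

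The longer sites of the factors named in the study's title were in few member windows, while the short E-box was in more. The STAT site (TTCCNGGAA) was in 3 member windows (0.744%), 1.35% near gene ends, 0.871% in other distal regions and 1.18% of all. The C/EBP site (TTGCNNCAA) was in 4 (0.993%), and in 1.19%, 2.88% and 2.07% of the same sets. The extended M-box (TCANGTGA, a longer MITF site) was in 2.48% of member windows, and in 4.07%, 2.95% and 4.22% of those sets. The E-box was in 8.19% of member windows, and in 10.8%, 5.29% and 7.14%. The NRF1 site (GCGCATGCG) was in 1.74% of member windows, 4.72% near gene ends and 0.0670% in other distal regions, and the YY1 site (AAGATGGC) in 2.23%, 5.08% and 1.27%. TEAD (GGAATG) and RUNX matches were in 14.1% and 12.9% of member windows, and in 14.6% and 16.7% of all. Near gene ends both were in 10.6%, and in other distal regions they were in 19.4% and 20.3%. The CTCF core, with up to 1 mismatch, was in 7.44% of member windows, 5.66% near gene ends, 5.97% in other distal regions and 4.41% of all. With no mismatch allowed the shares were 1.24%, 0.781%, 2.01% and 0.573%, so that other distal regions were above members. Motifs were searched on both strands. Windows of 1 gene can overlap. The window sets differ in GC content, whose part in these shares was not tested. Only start windows were searched, so the shares say nothing of the members without a start.

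**Figure D2:**
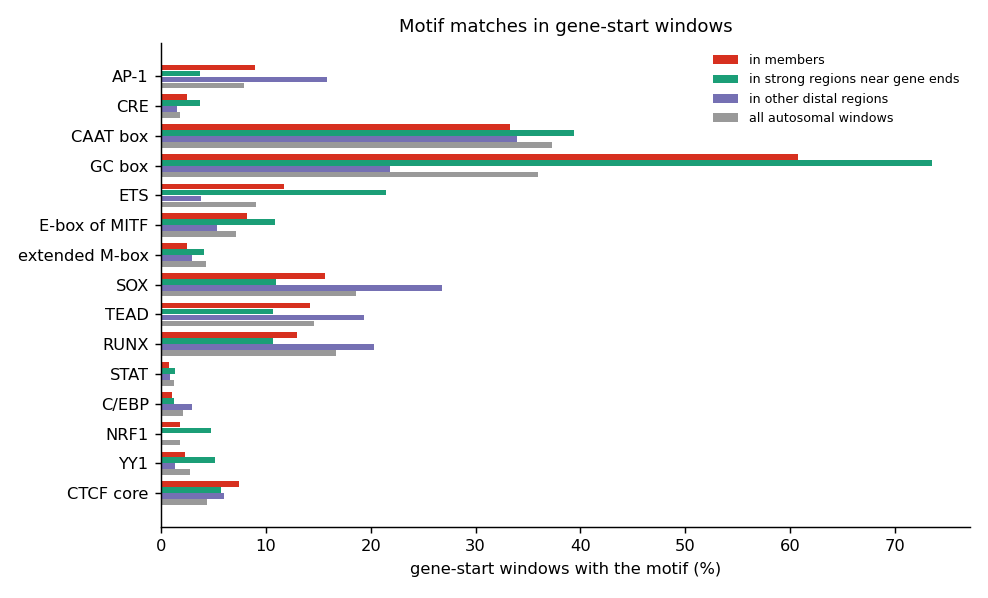
Percent of 300 bp gene-start windows with at least 1 match to each motif (bars), for windows in members, in strong regions near gene ends, in other distal regions and for all autosomal windows. GC boxes were in 60.8% of member windows and 73.5% of those near gene ends.

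tRNA genes were a further class of promoter among the members. A tRNA gene end lay within 1 kb of 25 members (1.39%), against 0.0696% of the other distal regions and 0.811% of strong regions near gene ends, and 24 of the 25 contained such an end. Their median level was 27.2 CPM. The strongest, chr3:19628063-19629477 near Trim55, held n-TYgta1, a tyrosine tRNA gene. Its 2 libraries of line 112 had 42.3 and 30.8 CPM, those of line 113 91.7 and 89.0 CPM, those of line 119 63.4 and 62.4 CPM and those of line 73 71.7 and 73.3 CPM. Line 112 was below every other library and line 113 above, so the 2 knockout lines stood at opposite ends. At chr19:12010008-12011999, near Osbp and n-TLtaa4 (leucine), the line means ran from 45.4 to 62.7 CPM, and members to either side, with n-TKctt29 (lysine) and n-TVtac2 (valine), averaged 17.7 and 17.3 CPM. The tRNA-bearing region with the widest relative spread was chr13:23298541-23300406 at n-TVaac6 (valine), with 14.3 CPM in line 113 and 66.0 CPM in line 73. tRNA genes occur in near-identical copies, and how reads that map to several copies were counted is not given in the sources used here, so these values are uncertain. Of all noncoding genes, a lncRNA end was within 1 kb of 258 members (14.3%), against 4.14% of other distal regions and 14.02% of strong regions near gene ends.

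Members were wider than other distal regions, with a median of 912 bp (interquartile range 663 to 1190) against 564 bp, and close to the 830 bp of strong regions near gene ends. Per kb of region they had 27.7 CPM, against 5.00 and 33.9. A wider region collects more counts, so the rule itself favours width. More members lay inside a protein-coding gene, 1092 of 1802 (60.6%), than other distal regions (49.9%), and the nearest gene end was nearer, at a median of 33449.5 bp against 50178 bp. Only 243 members (13.5%) were over 100 kb from any protein-coding gene end, against 30.0%. By chromosome, the members were 1.21% of distal regions on chromosome 3 and 2.41% on chromosome 7, with the others between.

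Peak calls, which come from the same reads, covered most members. A call was present in all 8 libraries for 1399 members (77.6%) and in exactly 7 for 341, against all 8 in 0.950% of the other distal regions and 87.9% of strong regions near gene ends. The missing calls were concentrated in line 112 replicate 2, the shallowest library, which had a call at 1419 members where the other libraries had 1764 to 1799. Without that library, 1724 members had a call in each of the other 7. Where all 8 libraries had a call, the summits lay within a median of 165 bp of each other (interquartile range 92 to 345.5), and within 100 bp in 400 members (28.6%).

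The median member had 24.5 CPM over the 8 libraries, with a range of 11.4 to 100.5 CPM, and 65 members averaged at least 50 CPM. The lowest count behind a member in a library was between 27 (line 112 replicate 2) and 75 (line 119 replicate 1), so no value rests on fewer than 27 counts. The coefficient of variation (SD over mean, 8 libraries) had a median of 0.266 and ran from 0.0598 to 0.862. On a log2 scale with TMM-normalized libraries, the line means of a member spanned a median of 0.97, a fold of 1.96, while the 2 libraries of a line differed by a median of 0.24. Strong regions near gene ends spanned 0.96, and other distal regions 1.93 with a replicate difference of 0.45. Among members, 951 (52.8%) spanned under 1 log2 unit and 33 (1.83%) at least 2.

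**Figure D3:**
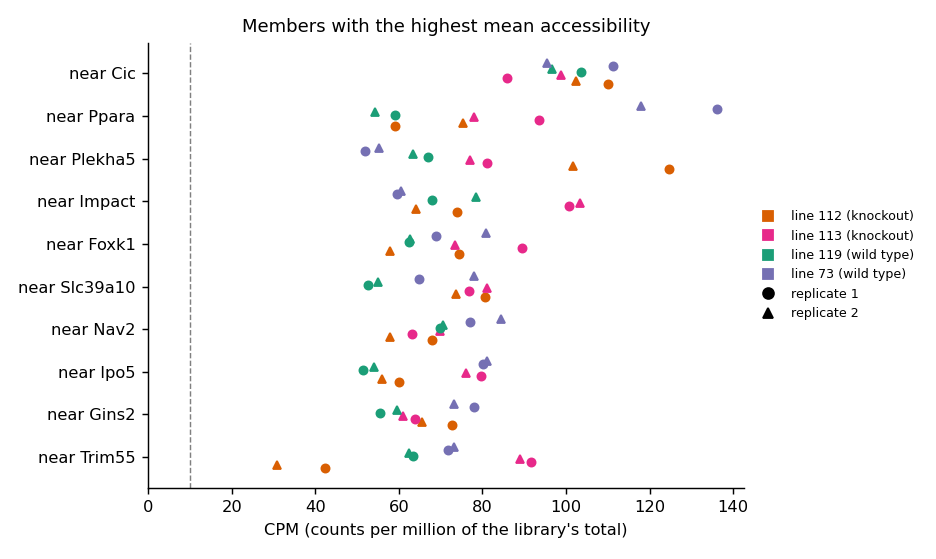
CPM in each of the 8 libraries for the 10 members with the highest mean, each named by its nearest protein-coding gene, with colours for lines, circles for replicate 1 and triangles for replicate 2, and the dashed line at the minimum of 10 CPM. The region near Cic stays between 85.9 and 111 CPM, while those near Ppara, Plekha5 and Trim55 spread over the lines.

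The strongest member lay inside Cic, a transcriptional repressor downstream of receptor tyrosine kinase signalling, at chr7:25278213-25280703. Its values were 110 and 102 CPM in line 112, 85.9 and 98.9 CPM in line 113, 104 and 96.7 CPM in line 119, and 111 and 95.6 CPM in line 73. Both libraries of line 113 were below both of line 112, and each wild-type line overlapped both knockout lines. With a coefficient of variation of 0.0817 it was also among the 5 least variable members, and no pair of lines was called different. A neighbour at chr7:25281763-25283126, which overlaps an internal Cic start, averaged 55.5 CPM and was less even, from 43.3 CPM in line 119 to 76.2 CPM in line 113. At chr15:85668862-85671810, between Wnt7b and Ppara (a nuclear receptor for fatty acids), the values were 59.1 and 75.3 CPM in line 112, 93.5 and 78.0 CPM in line 113, 59.1 and 54.2 CPM in line 119, and 136 and 118 CPM in line 73. Line 73 was above all others, and the 2 wild-type lines were the lowest and the highest. The Plekha5 region, chr6:140547076-140548551, had 125 and 102 CPM in line 112, 81.1 and 77.1 CPM in line 113, 67.0 and 63.4 CPM in line 119, and 52.0 and 55.3 CPM in line 73. Here both knockout lines were above both wild-type lines without overlap.

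In Slc39a10, the region over the internal start shown above, chr1:46853134-46854069, had 80.6 and 73.8 CPM in line 112, 76.7 and 81.1 CPM in line 113, 52.5 and 54.9 CPM in line 119, and 64.8 and 78.1 CPM in line 73, with line 119 lowest. The Ipo5 region, chr14:120910581-120911977, had 60.1 and 56.0 CPM in line 112, 79.5 and 76.2 CPM in line 113, 51.4 and 54.0 CPM in line 119, and 80.1 and 81.1 CPM in line 73. Lines 113 and 73 were thus high together and lines 112 and 119 low together, across genotypes. The first 2 also carry the higher p numbers, but a link to these was not tested. With TMM, the order was not particular to this region. By that scaling, 6076 of 6169 strong regions near gene ends called between lines 112 and 113 were lower in 112. Between lines 119 and 73, 7756 of 7917 were lower in 119. These splits were taken with TMM only, and the direction of member calls depended on the scaling. Of those between lines 112 and 113, 5.80% were higher in 112 with TMM and 32.6% with library totals. On regions of at least 50 counts on average the share was 65.4%. A general order of the lines therefore cannot be stated. Regions in Foxk1 (a forkhead factor of metabolism), Nav2 (neuron navigator), Gse1 (nearest gene end Gins2) and Impact (a regulator of translation under stress) averaged 71.3, 70.1, 66.2 and 76.1 CPM, with coefficients of variation of 0.148, 0.115, 0.118 and 0.227. Of these 10, those in Slc39a10 and Ipo5 overlapped a gene-start window, and Impact lies on chromosome 18, which was not searched.

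The least variable members were not all strong. In Nhsl1, an actin regulator, chr10:18329148-18330314 ranged from 16.5 to 19.7 CPM, the smallest coefficient of variation (0.0598). The region nearest Map3k7, the kinase TAK1, at chr4:32055024-32056134, had 10.3 to 12.6 CPM, and that in P4ha3, a collagen prolyl hydroxylase, at chr7:100302228-100302799, had 10.9 to 13.5 CPM. Both sit just over the minimum, which cuts off lower values and so narrows the spread. Prickle1, whose start window is shown above, had 26.5 to 33.6 CPM at chr15:93518767-93519661. None of these differed between any pair of lines.

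At the threshold, 3 members had just over the minimum in line 112 replicate 2, near Krr1, in Mprip and in Zzef1, with means of 17.5, 14.5 and 22.4 CPM. Just outside it, regions in Urgcp, near Trib1 and near Bank1 had 9.94 CPM in line 113 replicate 1 and means of 18.7, 28.4 and 23.5 CPM. In these 6 regions a single library set the side of the minimum.

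Most members stood alone. Joined over gaps of up to 12500 bp, 380 members (21.1%) fell into 172 groups, 143 of them pairs, and 1422 had no other member that near. The largest group was 5 members over chr15:76189731-76209341 in Plec, the cytoskeletal linker plectin. Of these, chr15:76195492-76196989 had line means of 48.8, 47.2, 52.7 and 109.3 CPM in lines 112, 113, 119 and 73, and chr15:76198014-76200073 had 55.9, 29.4, 57.9 and 110.4 CPM. Line 73 was highest in 4 of the 5, and lowest in the fifth, chr15:76208261-76209341, at 18.6 CPM. Between Wnt7b (a secreted WNT ligand) and Ppara, groups of 4 and 3 members lay side by side, with 1 further member beyond each. Groups of 4 also lay near Tomm20, in Gse1, near Irf2bpl and in Nr3c1, the glucocorticoid receptor. The 4 regions in Nr3c1 lay close together within 2831 bp, chr18:39489094-39491924, so they need not be separate elements. They averaged 16.7 to 39.1 CPM with line 113 highest in each.

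By nearest gene, the 1802 members had 1303 different genes, 965 of them with a single member, and 14 with 5 or more. Chd9, a chromatin remodeller, had 7, spread over chr8:90794974-90955630 with means of 15.7 to 52.7 CPM. They did not move together: chr8:90877017-90877686 had line means of 34.1, 32.7, 34.9 and 38.6 CPM in lines 112, 113, 119 and 73 with no pair called, while chr8:90868781-90870109 had 18.2, 12.6, 27.2 and 41.2 CPM, lower in both knockout lines. Hmga2, an architectural chromatin protein, had 5 members, of which chr10:120422007-120423464 was the strongest at 52.9 CPM. Members of the same gene therefore gave different orders of the lines.

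The gene lists covered few members. For pigmentation, 5 members (0.277%) had a gene of the list nearest, against 0.295% of other distal regions, and for the neural crest and invasive state 7 (0.388%), against 0.409%, both near the background. For AP-1 subunits there were 5 (0.277% against 0.0559%), for C/EBP factors 3 (0.166% against 0.0327%), for chromatin architecture 4 (0.222% against 0.0221%) and for the STAT3 pathway 6 (0.333% against 0.241%). These counts are of at most 7 regions and the nearest gene need not be the target. For chromatin architecture, 3 of the 4 members were neighbours within 2218 bp in Stag1.

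Among pigmentation genes, a member in Mitf, at chr6:97883394-97884091, had 19.03 and 13.0 CPM in line 112, 15.9 and 14.4 CPM in line 113, 15.4 and 13.2 CPM in line 119, and 12.8 and 16.2 CPM in line 73. The lines overlapped and no pair differed. The member nearest Pax3, a neural crest factor, at chr1:78057849-78058395, had 17.8 to 31.0 CPM, and that nearest Tfap2a, another, at chr13:40650065-40651525, 16.3 to 28.9 CPM. In Met, the receptor of hepatocyte growth factor, chr6:17501405-17502170 had 30.8 and 20.8 CPM in line 112, 33.8 and 30.6 CPM in line 113, 21.3 and 23.7 CPM in line 119, and 10.1 and 12.7 CPM in line 73. Line 73 was lowest and line 112 overlapped line 119. The region nearest Slc24a5, a pigment cell ion exchanger, at chr2:125014745-125015560, was highest in line 119, at 56.9 and 61.5 CPM, and lowest in line 113, at 22.5 and 24.7 CPM.

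For the invasive-state genes, the member beyond Zeb1, a transcriptional repressor that promotes EMT, lay at chr18:5818801-5820330. It had 52.3 to 65.4 CPM in the knockout libraries and 33.2 to 49.5 CPM in the wild-type ones, and the genotypes did not overlap. The 2 members nearest Fn1 (fibronectin) went different ways: chr1:71880396-71881012 had line means of 27.2, 29.9, 18.7 and 18.7 CPM in lines 112, 113, 119 and 73, and chr1:71893248-71894039 had 15.3, 10.6, 14.4 and 26.0 CPM. Tead1, a factor of the Hippo pathway, had 2 members of 25.1 and 21.7 CPM inside the gene, and Cdh2 (N-cadherin) 1 of 30.5 CPM. The region at the Gm13470 start averaged 21.2 CPM and lies 1325223 bp from Zeb2.

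Around AP-1 genes, the stronger member with Fos as nearest gene lay at chr12:85455102-85455764. It had 55.6 and 46.0 CPM in line 112 and 65.0 and 65.2 CPM in line 113. Line 119 had 35.9 and 39.7 CPM there, and line 73 had 49.9 and 48.2 CPM. The weaker one, chr12:85487276-85488150, lay 10002 bp from Fos. Its line means were 22.8, 12.3, 12.2 and 12.8 CPM in lines 112, 113, 119 and 73. The member near Jun at chr4:95105298-95106541 had 33.8 and 21.5 CPM in line 112, and 18.3 and 19.996 CPM in line 113. It had 53.2 and 55.6 CPM in line 119, and 63.0 and 61.8 CPM in line 73. The highest knockout library was below the lowest wild-type one. A further member near Jun, chr4:95161097-95161741, did not follow it, with line means of 32.1, 37.5, 28.9 and 43.9 CPM. The region at the D730003I15Rik start near Atf3 had 21.7 to 43.0 CPM, lowest in line 119.

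Of the STAT3 pathway, Myc, the growth regulator, had 4 members, 53209 to 401961 bp from its nearest end. The strongest, chr15:62079081-62079897, had 60.3 and 31.9 CPM in line 112, 42.9 and 40.9 CPM in line 113, 43.5 and 44.4 CPM in line 119, and 40.1 and 34.7 CPM in line 73, and no pair of lines was called. The 2 libraries of line 112 were the highest and the lowest of the 8. By contrast chr15:62118481-62119501 had line means of 15.8, 11.7, 14.2 and 34.2 CPM, with line 73 highest. Bcl2l1, the survival protein BCL-XL, had 2 intragenic members of 35.1 and 28.0 CPM. Cebpb had 3 members 74586 to 109624 bp from its nearest end, of which chr2:167777216-167778214, which holds the Gm32287 and Gm14321 starts, was the strongest, at 37.6 CPM, with line means from 32.1 CPM in line 119 to 48.0 CPM in line 73. In Stag1, the region over the internal start, chr9:100643008-100643674, averaged 53.5 CPM, and those on either side of it 19.4 and 21.6 CPM, all 3 highest in line 73. Wapl, a cohesin release factor, had 1 member of 17.8 CPM.

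For the genotypes, counts were summed per line and 2 lines were set against 2, with edgeR's quasi-likelihood test and Benjamini-Hochberg adjustment over 140329 regions. No member passed an adjusted p of 0.05, and the background was the same, with 0% of all regions called. At an unadjusted p under 0.05 there were 37 members (2.05%) and 23733 of all regions (16.9%), and DESeq2 called 2 members, those near Il34 and Gm46353, where it called 6.45% of the 104960 regions to which it gave an adjusted p. The smallest adjusted p of a member was 0.145 by edgeR. The log2 fold changes (knockout over wild type) ran from -2.30 to 1.73, with a median of -0.04, against -0.09 over all regions. Because the rule demands 10 CPM in every library, a member could not be near 0 in either genotype, so nothing is read from these counts.

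The 5 most negative members are given as the extremes, with no support from the test. The first, in Il34 (a ligand of the CSF1 receptor), at chr8:110788857-110790106, had 10.3 and 11.9 CPM in line 112, 14.7 and 17.3 CPM in line 113, 48.6 and 48.3 CPM in line 119, and 83.1 and 75.5 CPM in line 73. The fold change was -2.30 (SE 0.64, adjusted p = 0.145 by edgeR, 2 lines a group). The region nearest Nfkbia, the inhibitor of NF-kB, at chr12:55466204-55467253, had 10.3 and 12.2 CPM in line 112, 12.1 and 16.2 CPM in line 113, 46.8 and 50.0 CPM in line 119, and 49.5 and 49.7 CPM in line 73, a change of -2.01 (SE 0.64, adjusted p = 0.161 by edgeR). In both, the genotypes did not overlap and every knockout library was at most 17.3 CPM. The regions were picked for their fold change, so this separation is no further evidence. The others lay near Gm46353, Smndc1 (a splicing factor) and Pxylp1 (a xylose phosphatase), with changes of -2.26, -2.10 and -1.98. The Jun region described above changed by -1.39 (SE 0.58, adjusted p = 0.244 by edgeR).

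The most positive were smaller. In D630045J12Rik, chr6:38223948-38225097 had 65.1 and 50.4 CPM in line 112, 37.6 and 39.1 CPM in line 113, 17.3 and 17.3 CPM in line 119, and 10.1 and 10.9 CPM in line 73, a change of 1.73 (SE 0.63, adjusted p = 0.197 by edgeR). In Tram2, a protein of collagen synthesis, chr1:21052088-21053454 had 34.6 to 65.6 CPM in the knockout libraries and 14.3 to 19.5 CPM in the wild-type ones. In Rgma, a repulsive guidance molecule, chr7:73391541-73392541 had 25.2 to 50.9 CPM against 13.5 to 15.8 CPM. Regions near Tex35 and BC052040 changed by 1.29 and 1.25. In each of the 5, all knockout libraries were above all wild-type ones, and none passed the adjusted test. As they were picked for a large fold change, this separation is no further evidence.

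**Figure D4:**
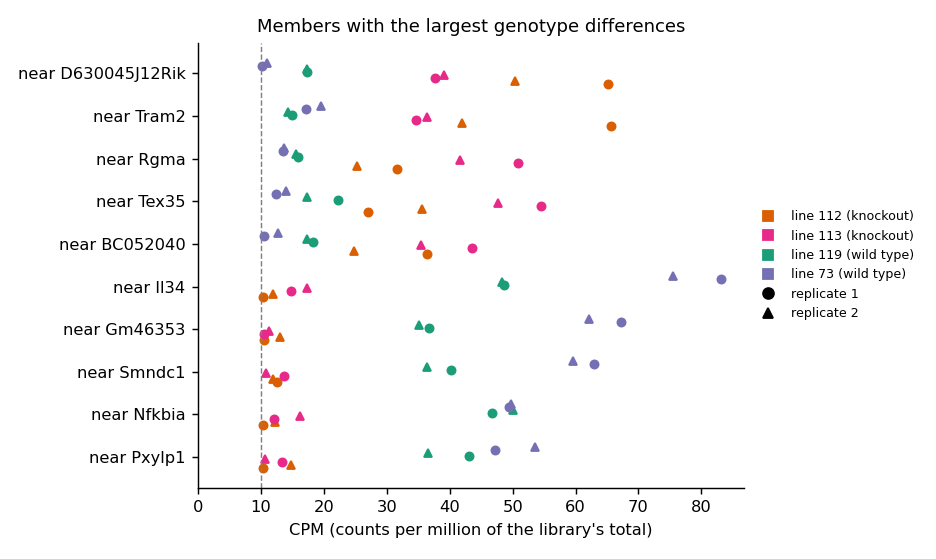
CPM in each of the 8 libraries for the 5 members with the most positive and the 5 with the most negative log2 fold change between genotypes, with colours for lines, circles for replicate 1 and triangles for replicate 2, and the dashed line at 10 CPM. The knockout libraries of the lower 5 lie between 10.3 and 17.3 CPM.

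Each line was then set against each other line, with all 8 libraries sharing 1 estimate of spread (edgeR, adjusted p under 0.05 over 134068 regions). Of the members, 827 (45.9%) were called between lines 112 and 113, the 2 knockout lines, against 25.5% of all regions. Between lines 119 and 73, the 2 wild-type lines, 1074 (59.6%) were called, against 60.2%. Across genotypes the counts were 647 (35.9%, against 48.6%) for 112 and 119, and 1042 (57.8%, against 52.4%) for 112 and 73. They were 1101 (61.1%, against 61.2%) for 113 and 119, and 878 (48.7%, against 54.5%) for 113 and 73. Strong regions near gene ends varied more over the pairs. In the same order, 65.0%, 83.4%, 25.8%, 64.5%, 86.1% and 24.5% of them were called. These pairs share libraries with each other. In all, 135 members (7.49%) were called in no pair, 555 (30.8%) in 3, 511 (28.4%) in 4 and 21 (1.17%) in all 6. Over all regions tested the shares were 9.15%, 30.8%, 23.5% and 1.54%. The member in Zfhx3 at chr8:108895169-108897157, a homeobox factor, was among those without a call, with line means of 43.3 to 58.3 CPM. The one nearest Smad7, an inhibitor of TGF-beta signalling, at chr18:75342335-75343280, was called in all 6, with 21.7, 28.0, 43.2 and 77.3 CPM in lines 112, 113, 119 and 73.

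**Figure D5:**
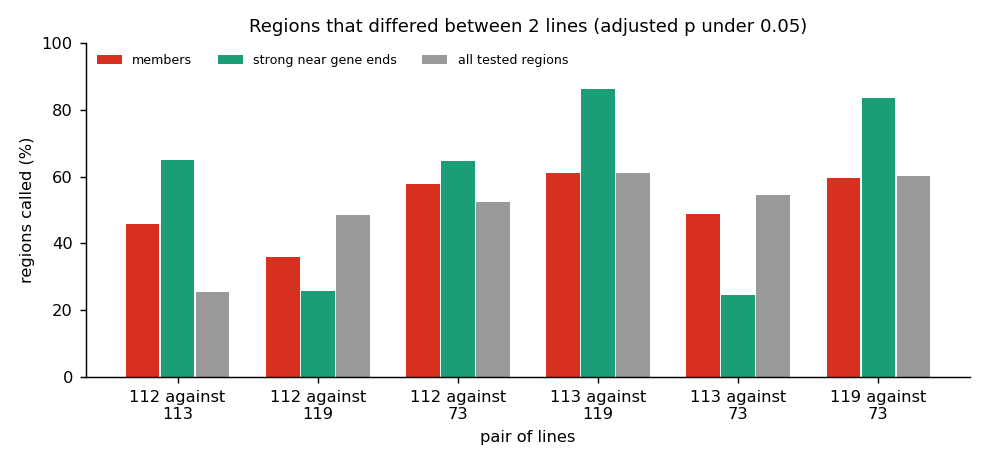
Percent of regions called different between 2 lines (edgeR, adjusted p under 0.05) for members, for strong regions near gene ends and for all tested regions, with 1 group of bars per pair of lines. For members the counts ran from 647 (lines 112 and 119) to 1101 (lines 113 and 119) of 1802.

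Which line was higher depended on the scaling for much of the set. With TMM, 5.80% of the 827 calls between lines 112 and 113 were higher in 112, with the library totals 32.6% of 561, and with only regions of at least 50 counts on average 65.4% of 518. For 112 against 119 the share higher in the first line was 38.6% with TMM and 54.0% with totals, for 112 against 73 15.7% and 36.8%, for 113 against 119 80.3% and 65.9%, for 119 against 73 20.2% and 32.7%, and for 113 against 73 49.4% and 47.4%. On regions of at least 50 counts the shares of the last 5 pairs, in the order 112 against 119, 112 against 73, 113 against 119, 119 against 73 and 113 against 73, were 38.9%, 48.6%, 33.3%, 55.4% and 41.7%. From TMM to totals, the median log2 difference of all regions moved from 0.08 to 0.41 for 112 against 113, from 0.04 to 0.15 for 112 against 119, from 0.04 to 0.34 for 112 against 73, from 0.09 to -0.13 for 113 against 119 and from -0.09 to 0.09 for 119 against 73. So a general rise or fall of the members between lines cannot be stated. On library totals, line 73 was highest for 678 members, line 113 for 599, line 119 for 303 and line 112 for 222, and with TMM the counts were 735, 775, 196 and 96.

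Across all 4 pairs that cross the genotypes, 156 members were called in 1 direction (43 higher and 113 lower in the knockout lines), where 15.8% of all regions were. With library totals these were 83 higher and 142 lower, and leaving out 1 library moved the split in both directions. Without line 112 replicate 1 there were 20 higher and 165 lower, and without its replicate 2 there were 106 and 118. The numbers were 23 and 76 without line 113 replicate 1, and 33 and 84 without its replicate 2. They were 12 and 75, and 11 and 78, without replicates 1 and 2 of line 119. Without those of line 73 they were 25 and 90, and 23 and 87. With 2 lines per genotype, a difference of genotype and a difference between particular lines cannot be told apart.

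As a description, log2 levels of the 1802 members correlated at Pearson r = 0.851 (line 112) to 0.957 (line 119) between the 2 libraries of a line, across regions that share libraries and are not replicates. Between line means, r was 0.725 for the 2 knockout lines, 0.468 for the 2 wild-type lines and 0.403 to 0.504 across genotypes. Strong regions near gene ends had 0.823, 0.781 and 0.746 to 0.797 for the same comparisons. The members span a narrow range of levels because the rule cuts them off at 10 CPM.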

How the data were processed

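ATAC-seq was run on 8 libraries of 4 mouse melanoma lines. Raw counts for 148664 regions were deposited as 1 table. Each library also has a peak list deposited by the authors, with the caller's score, fold enrichment (ratio), −log10 p and −log10 q of every peak; the lists were used only for overlap and 1 q limit. The submitters' processing notes name Bowtie2 2.2.4, Picard 1.118, MACS2 2.1.1.20160309 and the builds mm10 and GRCm38. Whether reads, fragments or cuts were counted, whether positions were shifted for the transposase, and how duplicates and multiply mapped reads were treated is not given in the sources used here. The members and gene lists were chosen with earlier results of these data known.

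From the counts, CPM were computed on the library totals. Distances and names came from RefSeq genes on GRCm38.p6 (21900 protein-coding genes), and gene-start windows from RefSeq promoters, which hold none on chromosome 18. Tests used edgeR 4.0.16 in R 4.3.3 (TMM, filterByExpr, robust quasi-likelihood fit, two-sided, Benjamini-Hochberg adjustment over all regions tested), with DESeq2 1.42.0 as an alternative. The edgeR fits were checked on simulated counts. All simulated libraries had the same spread, and lines differed only by the planted genotype changes. The check therefore does not show how the genotype test behaves when lines of a genotype differ. Genotypes were compared on counts summed per line. A standard error is the log2 fold change divided by the square root of F. Named regions are the 10 strongest, the 5 least variable, the 5 largest changes each way, 3 on either side of the minimum and the strongest member of each listed gene. Other regions given as examples (in groups, at tRNA genes, or called in no pair or all 6) were chosen after their values were seen. Equal replicate numbers did not pair the lines. Values of 2 further loci are not reported here.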

Additional observations from a re-analysis of the deposited data

Results flagged for a closer look

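Line 112 replicate 2 lay far below the other 3 knockout libraries in 3 of the 26 sets of 4 libraries examined. The rule flags about 1 set in 20 by chance if the 4 libraries are independent. Here each set held 2 duplicates of each of 2 lines, so that rate need not hold. The 3 flagged values are related properties of the same library and do not count as 3 separate results. Members held 4.08% of its counts against 4.99% to 5.09% in the other 3. A peak call covered 1419 members against 1764 to 1788. The median member had 19.6 CPM against 24.5 to 25.3 CPM.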

How the results depend on the processing

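The number of members was 4836 with a minimum of 5 CPM, 456 with 20 CPM and 1111 when ends of genes of every type counted, and 1829 to 1968 without each library in turn. The share inside a protein-coding gene was 58.0% at 5 CPM and 73.9% with genes of every type, and 59.8% to 60.9% without each library. The share within 1 kb of another gene's end was 12.5% at 5 CPM, 22.4% at 20 CPM and 28.9% within 5 kb. The share on a gene-start window, examined after seeing the data, was 10.1% at 5 CPM, 30.8% at 20 CPM, 21.3% at over 5 kb and 16.7% at over 20 kb, so it was higher at each higher minimum tried. With 50% reciprocal overlap 455 members had a peak call in every library, and leaving out libraries gave 1399 to 1724, the highest without line 112 replicate 2. The median range of line means was 0.93 to 1.10 without each library.

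Between genotypes, DESeq2 called 2 members (0.111%) on line sums and 6.45% of all regions. With libraries as units, which takes duplicates of a line as independent, edgeR called 197 members (10.9%) and 26.0% of all regions, and with the replicate block 134 (7.44%) and 21.6%. Replicate deviations of the lines correlated at -0.0355 to 0.0095, so equal numbers share only a number. Without each library in turn no member was called by edgeR, and of all regions 633 (0.453%) were called without line 112 replicate 1 and 0 without each of the other libraries. In the pairs of lines the replicate block gave 806 calls for 112 and 113 and moved no pair's count by over 1.5 times. DESeq2 gave 544 for 112 and 113 and 418 for 112 and 119, and regions of at least 50 counts gave 518 for 112 and 113. Leaving out libraries, each lone library being assumed to vary like the other lines, gave 411 to 1147 (112 and 113, lowest without 113 replicate 1), 374 to 795 (112 and 119), 798 to 1187 (112 and 73), 605 to 1287 (113 and 119), 634 to 1097 (113 and 73) and 593 to 1249 (119 and 73). In the 3 pairs with line 119 the lowest counts were those without 1 of its libraries (374 and 381 for 112, 606 and 605 for 113, 603 and 593 for 73). The causes were not tested. The directions of the named fold changes did not reverse under any alternative run. Planned motif, CTCF core, frequent 8-base word and repeat shares over whole regions were not run, for want of a genome sequence. Depth limits members to 27 or more counts per library, and intervals for counting error would not cover PCR duplicates.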
